A study of Mus musculus with 20 samples.

Results

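Connexins and desmosomal proteins join neighbouring heart muscle cells, and their genes are described here in the atria of heterozygous mice and of their wild-type littermates. The genes are 5 connexins (Gja1, Gja4, Gja5, Gjc1 and Gjd3) and 5 desmosome components (Dsg2, Dsc2, Dsp, Pkp2 and Jup). Every array probe that the platform annotation assigns to 1 of these 10 names was taken, which gave 20 probes for 9 genes out of 45281 probes, and Dsp was not analysed here. Of these, 16 probes for 8 genes were detected on enough arrays to be tested, out of 20097 tested probes for 11154 named genes, and the Dsc2 probe was not among them.

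The study measured RNA with Illumina bead arrays in the atrial appendages of littermates, with 5 heterozygotes and 5 wild-type animals. All animals were CD1 mice, an outbred strain, at an age of 12 weeks. The groups are called LA het (left atrium, heterozygous), LA wt (left atrium, wild type), RA het (right atrium, heterozygous) and RA wt (right atrium, wild type), with 5 arrays each. All 4 groups are whole tissue with no treatment named in the labels, so every cell type of the appendage contributes RNA. The labels do not describe the allele, and the genotype was not checked on the arrays. In such bulk samples fewer cells of a type and less RNA per cell cannot be told apart.

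Gap junctions are channels built of connexins that let the electrical impulse pass from 1 muscle cell to the next. Desmosomes anchor the intermediate filaments of neighbouring cells to each other at the intercalated disc, and inherited defects of their components cause arrhythmogenic cardiomyopathy. In the atrium, Gja1 and Gja5 encode the main gap junction channels of working muscle, Gja4 is known from endothelium, and Gjc1 and Gjd3 are known from slowly conducting nodal tissue.

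Each array detected between 17316 and 19422 probes, and arrays correlated with each other at Pearson's r of 0.952 to 0.991. RA het replicate 1 stood apart. It had the lowest number of detected probes (17316), the lowest median correlation with its own group (0.967) and the lowest array quality weight in limma (0.238). It was also the lowest RA het array for Gja1, Pkp2 and Jup and for 3 probes each of Gja5 and Dsg2. It was the highest for Gja4, Gjd3 and the dimmest tested probe of Gja5. The differences it moved most are therefore given with and without it. Ucp1, a marker of brown fat, exceeded 100 units on 4 arrays (LA het replicates 1, 2 and 4 and RA het replicate 1).

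The start regions of 3 connexin genes are shown because Gja4 differed between the sides of the heart while Gja5 and Gja1 passed no test. The RefSeq table held 5 of the 10 genes, and the sequences are RefSeq's for assembly GRCm38.p6 and run 5′ to 3′ over the 250 bases before each gene's start. Gja4 lies at chr4:127314040-127314289 on the minus strand, Gja5 at chr3:97032152-97032401 on the plus strand and Gja1 at chr10:56377050-56377299 on the plus strand.
Gja4: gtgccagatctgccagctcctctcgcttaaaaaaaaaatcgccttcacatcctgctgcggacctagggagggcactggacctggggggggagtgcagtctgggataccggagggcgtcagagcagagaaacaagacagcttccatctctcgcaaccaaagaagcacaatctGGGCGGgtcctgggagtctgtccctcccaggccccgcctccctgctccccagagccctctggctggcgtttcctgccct
Gja5: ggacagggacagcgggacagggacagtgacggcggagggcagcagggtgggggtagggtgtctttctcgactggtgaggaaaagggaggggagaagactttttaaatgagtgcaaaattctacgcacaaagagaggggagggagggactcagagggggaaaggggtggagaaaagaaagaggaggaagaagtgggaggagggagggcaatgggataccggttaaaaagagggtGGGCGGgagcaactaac
Gja1: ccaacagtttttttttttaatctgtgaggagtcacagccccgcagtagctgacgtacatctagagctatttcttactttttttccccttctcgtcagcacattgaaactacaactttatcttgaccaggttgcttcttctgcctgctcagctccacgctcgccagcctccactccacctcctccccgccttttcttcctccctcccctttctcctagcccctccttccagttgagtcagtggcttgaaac
Capitals mark GGGCGG, the core recognised by Sp1-type factors, which was searched on both strands and matched once in Gja4, 79 bases before the start, and once in Gja5, 17 bases before the start. It was not matched in Gja1, and 32.7% of 32851 promoters of that length hold it. The letters GGTGTG (T-box) and TNAAGTG (Nkx2-5 type) were also searched on both strands and are not in any of these 3 windows. They occur in 16.3% and 10.1% of the promoters. The other two of the 5 genes held GGGCGG as well, 2 times in Jup and 4 times in Dsp, and each held GGTGTG 1 time. The base composition differed, with 61.2% G and C in Gja4 and 56.4% in Gja5, both above the median of 52.4% over all promoters, and Gja1 below it. The matches describe letters and do not show binding.

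Levels are given as the deposited signal in array units and as log2 levels after background correction and normalization. Signals of different probes are not comparable as amounts of RNA, so each probe is compared only with itself. The exception is the summed signals of marker lists, which add different probes, weigh the brightest most and are compared only between groups. Differences are log2 differences between group means, the tests are limma's moderated tests over all 20 arrays, and adjustment for multiple tests followed Benjamini and Hochberg across the 20097 tested probes. A call means an adjusted p under 0.05, and the brightest tested probe stands for its gene in counts of genes.

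Gja4 was the connexin that differed between the left and right atria. Its single probe gave signals of 287.4, 307.8, 319.7, 235.2 and 418.3 units in LA wt, against 149.3, 245.4, 154.6, 160.5 and 177.9 units in RA wt. The groups overlapped only through RA wt replicate 2, which lay above LA wt replicate 4. Gja4 was 1.70-fold higher in LA wt than in RA wt (log2 difference 0.77, 95% interval 0.40 to 1.13, limma adjusted p = 0.0142). It passed in all 35 alternative settings in which this comparison was recomputed, most narrowly without LA wt replicate 5, the brightest LA wt array (difference 0.66, adjusted p rounding to 0.05).

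In heterozygous mice Gja4 had signals of 278.9, 330.4, 391.0, 284.3 and 281.1 units in LA het, against 344.5, 189.1, 198.6, 196.2 and 175.5 units in RA het. RA het replicate 1 stood far above the other 4 RA het arrays and lay within the LA het range, while the other 4 lay below every LA het array. The difference was 0.51 (95% interval 0.14 to 0.87) and did not pass (limma adjusted p = 0.166). Without RA het replicate 1 it was 0.67 with an adjusted p of 0.0192. Over both genotypes Gja4 was 1.55-fold higher in the left atrium (log2 difference 0.64, 95% interval 0.38 to 0.89, limma adjusted p = 0.0019).

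The order of the Gja4 log2 levels was LA het at 8.35 ± 0.20, LA wt at 8.34 ± 0.29, RA het at 7.84 ± 0.37 and RA wt at 7.57 ± 0.27 (SD, n = 5 each). Neighbours within a side did not differ beyond their spread, since the genotype difference was 0.01 in the left atrium (95% interval -0.35 to 0.37) and 0.27 in the right atrium (95% interval -0.09 to 0.63). The right-sided difference was 0.11 without RA het replicate 1. The side difference itself was not shown to change with genotype (interaction -0.26, 95% interval -0.78 to 0.25, limma adjusted p = 0.999).

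Both atria came from the same 10 mice, but which left and right arrays belong to 1 animal is not known from the labels. Tests over both atria or both genotypes treat the 20 arrays as independent, so a genotype test over both atria gives p-values that are too small where the atria of a mouse resemble each other. All p-values measure the spread between these arrays. Genotype differences in the left and in the right atrium are therefore not independent of each other.

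Markers of vessels are given beside Gja4 because the gene is known from endothelium. The arterial endothelium list had all 9 markers detected, and its summed signal ranged from 5372.1 to 5808.7 units in LA het, 5191.7 to 6130 in LA wt, 4842.8 to 6291.4 in RA het and 6053.9 to 6621.8 in RA wt. Its median was 5754 units in LA het, against 5845.3 in RA het, and 5642.3 units in LA wt, against 6394.7 in RA wt, so neither left group had the higher median. Bright markers weigh most in such a sum. By log2 difference of left minus right, 4 of 9 were positive over both genotypes (median -0.02). Within wild-type and within heterozygous mice 5 of 9 were positive (median 0.03 in each). Hey1 and Unc5b of this list were lower in the left atrium over both genotypes (log2 differences -1.22 and -0.94, limma adjusted p = 1.93e-09 and 4.76e-06) and Nrp1 was higher (0.37, adjusted p = 0.00411). Of 10 general endothelial markers 2 passed, Vwf and Eng, both lower in the left atrium (-0.70 and -0.57, adjusted p = 8.64e-06 and 2.8e-05). The list's median difference was -0.05, and 3 of 10 were positive, up to 0.38. Of 8 macrophage markers 7 were lower and 1 higher in the left atrium over both genotypes (median -0.50), and their part in the Gja4 difference was not tested.

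The 3 genes whose log2 levels followed Gja4 most closely over the 20 arrays, of 11154 genes, were Ccl8 (Pearson's r = 0.897), Entpd2 (0.882) and Pi16 (0.864). Within groups, after group means were removed, the same correlations were 0.769, 0.676 and 0.616. Pi16, a fibroblast marker, was itself 3.43-fold higher in the left atrium over both genotypes (limma adjusted p = 8.85e-06). These arrays share the side difference, so the correlations are descriptions.

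**Figure D1:**
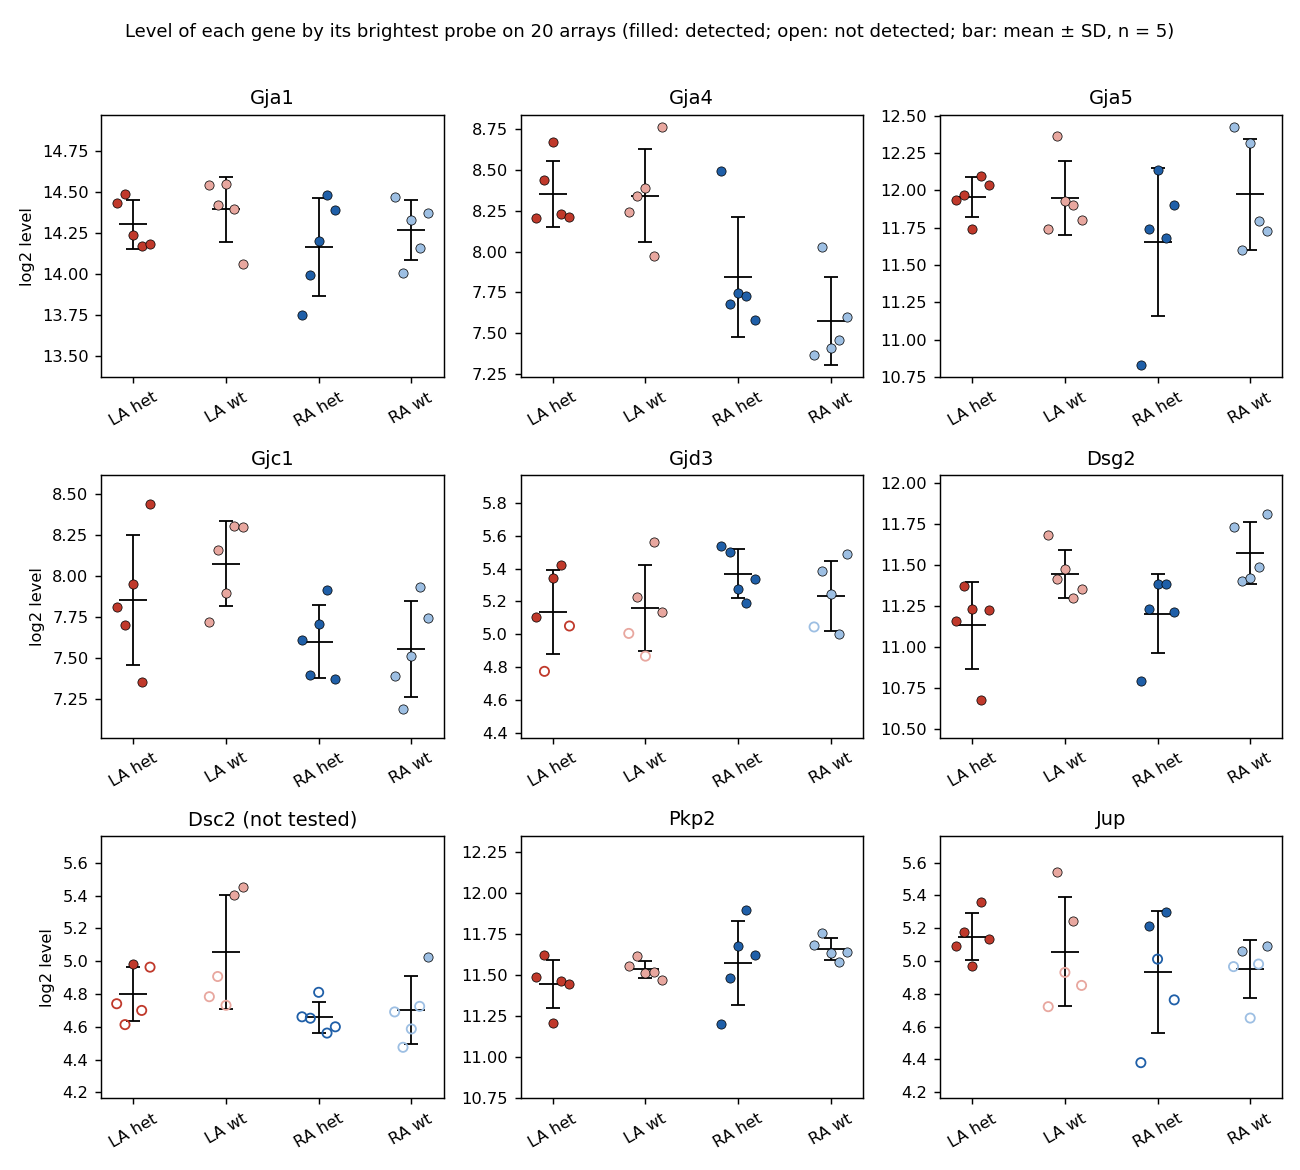
Log2 level of each gene by its brightest probe on every array, in LA het, LA wt, RA het and RA wt, with bars for the mean and SD (n = 5). Most right-sided Gja4 points lie below the left-sided ones, apart from RA het replicate 1 at 8.49 and RA wt replicate 2 at 8.03, and the Dsg2 means are lower in both heterozygous groups.

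Gjc1, a connexin of nodal and smooth muscle tissue, leaned the same way as Gja4 without a call. Its 1 tested probe gave 194.8, 270.3, 222.4, 301.2 and 299.9 units in LA wt, against 152.4, 130.1, 167.2, 228.8 and 198.4 units in RA wt. The groups overlapped, with LA wt replicates 1 and 3 below RA wt replicate 4. The difference between the sides was 0.25 (95% interval -0.13 to 0.63, limma adjusted p = 0.623) in heterozygous mice and 0.52 (95% interval 0.14 to 0.90, adjusted p = 0.16) in wild-type mice. Signals ranged from 147.8 to 331.9 units in LA het and from 150.1 to 225.5 in RA het. Over both genotypes it was 0.39 (95% interval 0.12 to 0.65, limma adjusted p = 0.0785), and it passed in 4 of 34 alternative settings, with adjusted p between 0.0259 and 0.564. Genotype differences were -0.22 in the left atrium and 0.05 in the right (adjusted p = 1 and 0.973). The genes most like it over the 20 arrays were Myh14 (Pearson's r = 0.879), 4430402I18Rik (0.863) and Fhod3 (0.853). The other two Gjc1 probes were detected on 0 arrays.

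Gja1, the most abundant connexin of working myocardium, differed little. Its signal ran from 13729.6 to 23964.1 units over all 20 arrays. The brightest signal of any probe was 38625.9 units, and bright signals can be compressed on such arrays. Signals ranged from 18460.4 to 22989.4 in LA het, 17079.9 to 23964.1 in LA wt, 13729.6 to 22835.2 in RA het and 16443.5 to 22684.3 in RA wt, and all 4 ranges overlapped. Log2 differences lay between -0.10 (RA het minus RA wt) and 0.14 (LA het minus RA het), with limma adjusted p of 0.554 or more. The 95% interval was -0.38 to 0.19 for the genotype difference in the left atrium and -0.39 to 0.18 in the right. Without RA het replicate 1, RA het minus RA wt was -8e-04 and LA het minus RA het was 0.04.

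Gja5, which encodes the connexin of atrial muscle and the fast conduction system, had 4 tested probes and passed no comparison. By its brightest probe it gave 3904.2, 3990.5, 3406.7, 4364.3 and 4181.6 units in LA het, against 3399.7, 5263.0, 3883.6, 3805.3 and 3547.2 units in LA wt. Right atria gave 1800.6, 3410.7, 4482.0, 3261.2 and 3801.5 units in RA het, against 5486.1, 3085.5, 5080.5, 3539.1 and 3376.2 units in RA wt. RA het replicate 1 was the lowest array of all, and the other 4 RA het arrays lay within the RA wt range. The difference was 0.01 in the left atrium (95% interval -0.41 to 0.43, limma adjusted p = 1) and -0.32 in the right (95% interval -0.74 to 0.11, adjusted p = 0.83). Leaving out RA het replicate 1 brought the right-sided difference to -0.11.

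The 3 bright Gja5 probes followed each other over the arrays, with Pearson's r of 0.919 to 0.939. The dim probe, detected on 19 arrays, correlated with them at 0.153 to 0.174. RA het replicate 1 was the highest array of its group on the dim probe, and without it these correlations were 0.410 to 0.512. Side differences of the 3 bright probes ran from 0.14 to 0.30 in heterozygous mice and from -0.03 to 0.19 in wild-type mice, with adjusted p of 0.595 or more. By the brightest probe, LA het minus RA het was 0.09 without RA het replicate 1. The fifth probe, matched to a different transcript record, was detected on 0 arrays.

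Among the connexins, Gja1 and Gja5 correlated at r = 0.577 over the 20 arrays, and Gja4 ran against Gja5 at -0.313 and, within groups, at -0.698. Without RA het replicate 1, lowest for Gja5 and highest of its group for Gja4, the first was 0.268 and the others -0.192 and -0.472. The arrays share mice, so the values are descriptions.

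Gjd3, a connexin of slowly conducting nodal tissue, was at the edge of detection. It was detected on 3 of 5 LA het, 3 of 5 LA wt, 5 of 5 RA het and 4 of 5 RA wt arrays, with signals from 9.0 to 31.5 units. Its largest difference was -0.23 between LA het and RA het (95% interval -0.53 to 0.06, limma adjusted p = 0.537).

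Dsg2, a desmosomal cadherin that spans the membrane, showed lower values in heterozygous atria on 3 of its 4 probes, without a call. Probe ILMN_1242566 gave 182.1, 359.3, 117.8, 128.5 and 193.1 units in LA het, against 431.8, 309.3, 444.1, 375.3 and 375.1 units in LA wt. LA het replicate 2 was the only heterozygous left atrium above the lowest LA wt array. The right atria gave 94.7, 159.6, 137.6, 313.7 and 246.7 units in RA het, against 364.4, 441.7, 418.3, 407.8 and 445.0 units in RA wt. All RA het arrays lay below all RA wt arrays, a separation that 0.179% of all tested probes showed in that direction and 3 of the 16 probes here, all of Dsg2.

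The log2 difference of that probe was -1.02 in the left atrium (95% interval -1.56 to -0.48, limma adjusted p = 0.75) and -1.17 in the right (95% interval -1.71 to -0.63, adjusted p = 0.83). Over both atria it was -1.09 (95% interval -1.48 to -0.71), a ratio of heterozygous to wild-type level of 0.469, with a limma adjusted p of 0.0569. This placed it at rank 3 of 20097 tested probes by p-value. The spread was larger among heterozygous arrays, with a log2 SD of 0.59 in LA het and 0.63 in RA het, against 0.20 in LA wt and 0.11 in RA wt.

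Probe ILMN_2955047 of Dsg2 gave 81.7, 154.6, 57.2, 45.7 and 90.2 units in LA het, against 226.1, 146.9, 241.5, 182.9 and 189.1 units in LA wt. The left groups overlapped by LA het replicate 2 alone, as on the other probe. The right atria gave 22.6, 71, 62.6, 156.4 and 124.2 units in RA het, against 169.1, 232.1, 226.2, 171.9 and 253.5 units in RA wt, and did not overlap. Its log2 difference over both atria was -1.22 (95% interval -1.68 to -0.76, limma adjusted p = 0.077), rank 5 by p-value. The 2 probes correlated at r = 0.984, and they are annotated to the same transcript and measure the same RNA samples, so they are 1 observation seen with different probes.

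The brightest Dsg2 probe, ILMN_1221153, gave 2266.6, 2626.2, 2386.4, 1621.4 and 2374.0 units in LA het, against 3264.2, 2714.6, 2830.8, 2504.0 and 2592.4 units in LA wt. It gave 1758.7, 2390.0, 2652.8, 2652.8 and 2353.9 units in RA het, against 3378.9, 2682.0, 2721.3, 2850.7 and 3577.6 units in RA wt. The right groups did not overlap and the left groups did. The difference over both atria was -0.34 (95% interval -0.54 to -0.14, limma adjusted p = 0.467), rank 87 by p-value. The intervals of the other 2 probes lie wholly below its own. It correlated with them at r = 0.764 and 0.803. Within groups, after group means were removed, these correlations were 0.54 and 0.64, and 0.37 and 0.46 without RA het replicate 1. The genes most like ILMN_1221153 over the 20 arrays were Alg2 (Pearson's r = 0.811), H3f3b (0.777) and Mtus1 (0.771). The fourth probe, ILMN_1215475, was dim, was detected on 17 arrays and differed by -0.17 (95% interval -0.45 to 0.11).

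Without RA het replicate 1, the differences over both atria were -0.99 and -1.06 for ILMN_1242566 and ILMN_2955047 (adjusted p = 0.0712 for each) and -0.29 for ILMN_1221153 (adjusted p = 0.528). Without the 4 arrays with brown fat marker signal they were -1.11 and -1.12 (adjusted p = 0.0181 and 0.0476) and -0.24 for ILMN_1221153 (adjusted p = 0.995), a setting chosen after the data were seen. All 4 arrays are heterozygous (LA het replicates 1, 2 and 4 and RA het replicate 1), so LA het kept only replicates 3 and 5. The arrays left out include LA het replicate 2, the only one that overlapped LA wt on ILMN_1242566 and ILMN_2955047. The side of the heart made little difference to Dsg2, with log2 differences between left and right of -0.22 to 0.08 over its 4 probes in either genotype. The difference between the genotype effects in left and right was 0.15 for each of ILMN_1242566 and ILMN_2955047 (95% interval -0.62 to 0.92 and -0.77 to 1.07).

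Marker lists are given beside Dsg2. The summed signal of 8 atrial muscle markers was 195378 to 207873 units in LA het, against 188711 to 201886 in LA wt, and 175357 to 211578 in RA het, against 198798 to 209568 in RA wt. Nppa of this list reached 38625.9 units, the brightest signal of any probe, and bright signals can be compressed. The sum may therefore miss a change in muscle content. The summed adipocyte signal reached 12051.4 units in LA het and 8810.9 in RA het, against at most 1103.6 in LA wt and 5748 in RA wt. With Myl2, Adipoq and Upk3b, markers of ventricular muscle, fat and mesothelium, as covariates, also chosen after the data were seen, the differences over both atria were -1.24 and -1.37 for ILMN_1242566 and ILMN_2955047 (adjusted p = 0.116 and 0.142) and -0.35 for ILMN_1221153 (adjusted p = 1).

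Markers of other cell types also leaned with genotype in the left atrium, with 0 called by limma in any of these lists. At an unadjusted limma p under 0.05, 4.66% of all probes were counted in the left atrium and 5.41% in the right. Macrophage markers were positive for 8 of 8 in LA het minus LA wt (median 0.37, 5 at an unadjusted p under 0.05) and for 4 of 8 in RA het minus RA wt (median 0.04, 0 at that p). Smooth muscle markers were positive for 6 of 6 in the left atrium (median 1.03, 4 at that p) and for 2 of 6 in the right (median -0.55, 0 at that p). Myh11 of this list was at 541.3, 1590.4 and 328.8 units on LA het replicates 1, 2 and 4, which had Ucp1 over 100. It was at 93.3 and 85.7 units on LA het replicates 3 and 5. Acta2 was at 8886.6, 24946.9 and 8744.7 units on the former and 3118.6 and 2386.4 units on the latter. Mesothelial markers were positive for 0 of 10 in the left (median -0.50, 4 at that p) and 5 of 10 in the right (median -0.04, 1 at that p). The part of macrophages and smooth muscle in the Dsg2 differences was not tested.

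**Figure D2:**
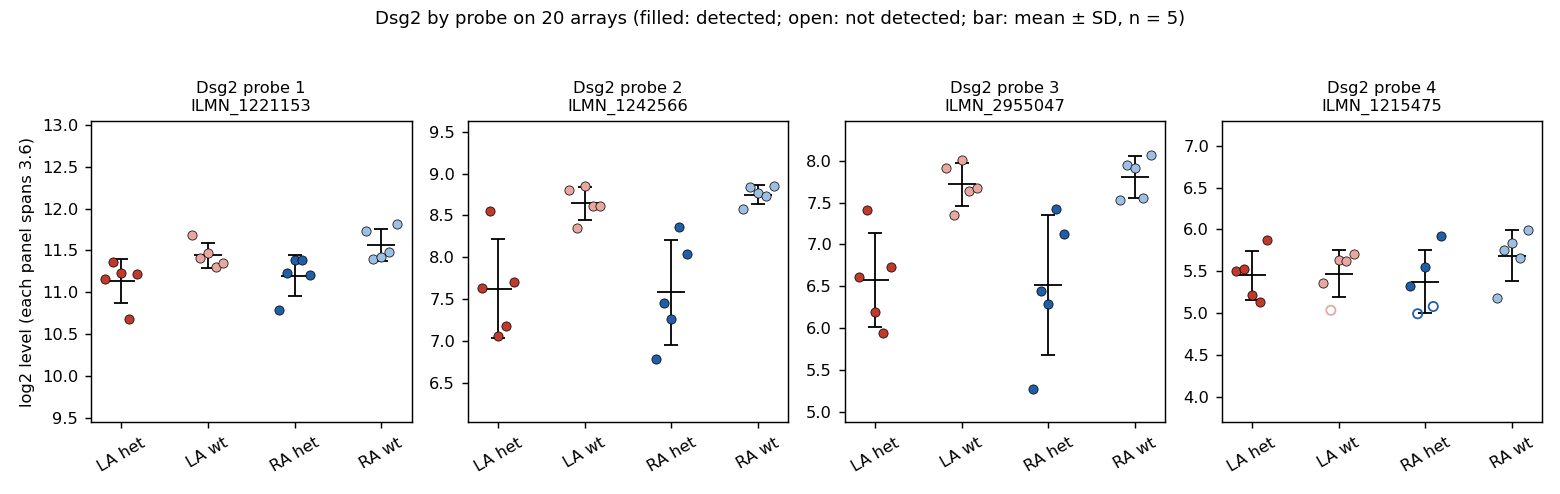
Log2 level of each of the 4 Dsg2 probes on every array in LA het, LA wt, RA het and RA wt, with bars for the mean and SD (n = 5), each panel spanning the same range. Probes ILMN_1242566 and ILMN_2955047 are lower by about 1 log2 unit in heterozygous atria, the brightest probe is lower by 0.34, and the dim probe overlaps throughout.

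The other desmosome genes differed little. Pkp2, the plakophilin that links desmosomal cadherins to the filament anchor, had 3 tested probes with log2 differences of at most 0.16 in size and adjusted p of 0.431 or more in every comparison. Without RA het replicate 1, LA het minus RA het was -0.22 by its brightest probe (adjusted p = 0.32). By its brightest probe it gave 2346.5 to 3128.5 units in LA het, 2822.4 to 3114.3 in LA wt, 2338.1 to 3785.4 in RA het and 3041.9 to 3445.9 in RA wt. Jup encodes plakoglobin, which binds the tails of desmosomal cadherins, and its probe was detected on 11 of 20 arrays with signals of -7.7 to 30.9 units. Its differences were between -0.02 and 0.21 (adjusted p of 0.565 or more). Dsc2, the other desmosomal cadherin of heart, was detected on 1 LA het, 2 LA wt, 0 RA het and 1 RA wt array, with signals from -2.2 to 28.0 units, and was not tested.

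Counted over the 8 tested genes, 0 passed in any comparison of heterozygous with wild-type atria by limma. Over all 20097 probes 0.00498% passed in the left atrium, 0.00995% in the right and 0.00995% over both, so a count of 0 is what the background gives. At an unadjusted p under 0.05, 1 of 8 genes (Dsg2) was counted in each of these comparisons, beside 4.66%, 5.41% and 6.65% of all probes, and 3 of 16 probes were counted, all of Dsg2. The count is the same gene in all of these comparisons. The median log2 difference of the 8 genes was -0.06 in the left atrium, -0.05 in the right and -0.09 over both, against -8e-04, 0.01 and 0.01 for all tested genes. The right-sided median rests partly on RA het replicate 1. RA het minus RA wt without that array was 0.12 for Jup, 0.11 for Gja4, 0.10 for Gjd3, 0.04 for Gjc1 and 0.01 for Pkp2. It was -8e-04 for Gja1, -0.11 for Gja5 and -0.27 for Dsg2.

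Between left and right, 1 of 8 genes (Gja4, higher in the left) passed in wild-type mice, where 3.28% of all probes passed and 1.57% were higher. Counted by gene, 4.2% of all tested genes passed in wild-type mice, 3.29% in heterozygous mice and 9.09% over both genotypes. In heterozygous mice 0 of 8 passed by limma, beside 2.61% of all probes, with 1 (Gja4) at an unadjusted p under 0.05, beside 12.7%. The unadjusted count in wild-type mice was 2 (Gja4 and Gjc1), beside 11.9%. Over both genotypes 1 of 8 passed, beside 7.35% of all probes, of which 3.82% were higher in the left, and 2 (Gja4 and Gjc1) were counted at an unadjusted p under 0.05, beside 17.4%. The median side difference of the 8 genes was 0.18 in heterozygous mice, against -0.0035 for all tested genes, and 0.04 in wild-type mice, against 0.02 for all tested genes. The heterozygous median rests partly on RA het replicate 1. LA het minus RA het without that array was 0.67 for Gja4, 0.25 for Gjc1, 0.09 for Gja5, 0.08 for Jup and 0.04 for Gja1. It was -0.17 for Dsg2, -0.19 for Gjd3 and -0.22 for Pkp2. For the difference between genotypes of the side difference, 0 of 8 genes passed by limma, beside 0.00995% of all probes, and 0 had an unadjusted p under 0.05, beside 2.95%.

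**Figure D3:**
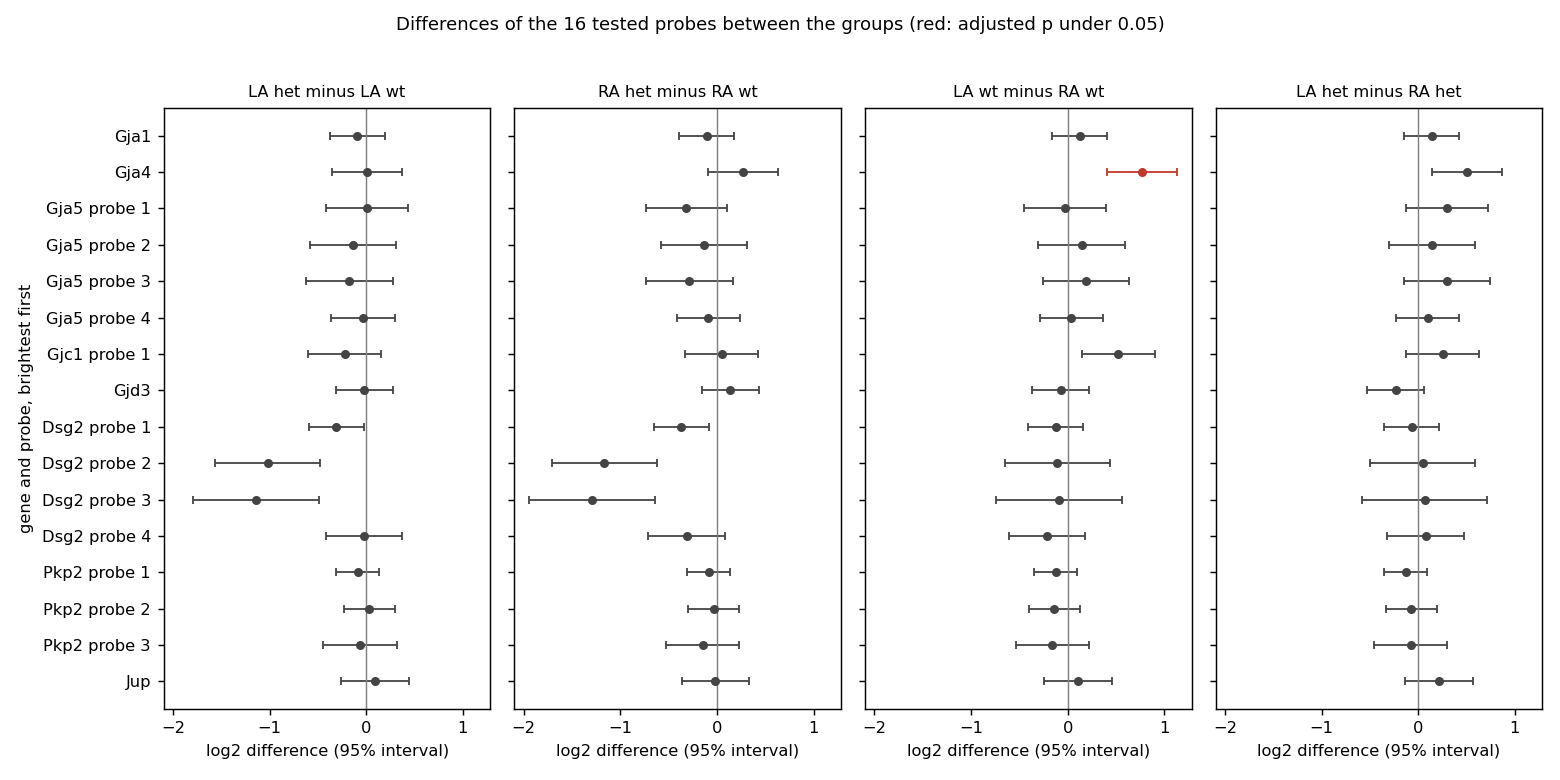
Log2 differences with 95% intervals for the 16 tested probes in LA het minus LA wt, RA het minus RA wt, LA wt minus RA wt and LA het minus RA het. Gja4 in LA wt minus RA wt is the only red point, at 0.77, and Dsg2 probes 2 and 3 lie between -1.29 and -1.02 in the heterozygous comparisons.

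Companion genes of the same cell contacts were listed for comparison. Of 18 other connexins and pannexins, 3 (Gja6, Gjb1 and Panx1) were tested, 11 were not detected on enough arrays, 10 of these on 0 arrays, and 4 were not analysed here. Of the 3, 0 passed in any comparison by limma, and 1 had an unadjusted p under 0.05 between genotypes over both atria. Gja6 had the smallest p over both atria, with a difference of 0.20 (adjusted p = 0.734), and was at 0.25 in LA het against LA wt. Of 13 other desmosome genes 5 were tested and 0 passed in any comparison by limma, with 1 at an unadjusted p under 0.05 between genotypes over both atria. Ppl, the desmosomal plakin periplakin, had the smallest p, with a difference of -0.32 over both atria (adjusted p = 0.506) and -0.49 in the left atrium (adjusted p = 0.962).

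In the adherens junction, the other cadherin-based contact of the disc, 0 of 8 tested genes passed in any comparison by limma, and 1 had an unadjusted p under 0.05 between genotypes over both atria. Cdh2, the N-cadherin that carries this junction, had a difference of 0.66 over both atria (95% interval 0.30 to 1.02, adjusted p = 0.393), on a dim probe detected on 16 arrays. It was 0.66 in the left atrium and 0.65 in the right. Ctnnd1, which binds the cadherin tail, was at -0.33 over both atria (adjusted p = 0.785).

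Of 21 tested genes of the disc scaffold, 0 passed between genotypes by limma, with 3 at an unadjusted p under 0.05 over both atria. Bves, a membrane protein of the disc, was at -0.40 over both atria (adjusted p = 0.467), and Ank2, an adaptor of channels and transporters, was at -0.42 (adjusted p = 0.556). Between the sides 5 of 21 passed over both genotypes, 2 higher and 3 lower in the left atrium, beside 7.35% of all probes (9.09% of all tested genes). Cxadr, an adhesion receptor of the disc, was 0.34 higher (adjusted p = 0.00544), and Popdc2, a popeye protein, was 0.31 higher (adjusted p = 0.00459). Des and Synm, the intermediate filament proteins desmin and synemin, were at -0.36 and -0.77 (adjusted p = 0.00234 and 0.00362), and Pdlim3 was at -0.67 (adjusted p = 0.00283). Within a genotype, 1 of 21 passed in heterozygous mice (Des) and 3 of 21 in wild-type mice (Cxadr, Synm and Pdlim3), beside 2.61% and 3.28% of all probes, with an interaction at adjusted p = 0.999 for each of these 4 genes. Pln, a calcium pump regulator counted with the cardiomyopathy genes, was 0.40 higher (adjusted p = 0.0139), so that list had 2 of 10 called, the other being Des.

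Of 12 tested transcription factors of connexin genes and conduction tissue, 0 passed between genotypes by limma, and 0 had an unadjusted p under 0.05 over both atria. The smallest p-values over both atria were for Sp1, at -0.38 (adjusted p = 0.753), and Hopx, at 0.29 (adjusted p = 0.779). Over both genotypes 5 of 12 were lower in the left atrium and 0 higher, beside 3.53% of all probes lower. Tbx3 and Tbx2, T-box repressors of Gja5 in nodal tissue, were at -1.24 and -0.47 (adjusted p = 4.37e-05 and 0.0058). Irx3 of the conduction system was at -0.98 (adjusted p = 6.76e-05), Tbx20 at -0.85 (adjusted p = 0.000474) and Shox2 of the sinus node at -1.25 (adjusted p = 0.00537). The sinus node lies in the right atrium, and the summed node marker signal was 339.6 to 612.5 units in LA het, 291.4 to 429.2 in LA wt, 855.2 to 1174.7 in RA het and 749.3 to 1565.7 in RA wt. Tbx3 and Shox2 are also on that node list. Within a genotype, 4 of 12 were lower in LA het than in RA het (Tbx3, Tbx2, Tbx20 and Irx3) and 4 of 12 were lower in LA wt than in RA wt (Tbx3, Tbx20, Irx3 and Shox2), beside 1.37% and 1.72% of all probes. The interaction of side and genotype did not pass for any of these 5 genes (adjusted p = 0.999 for each).

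Of 15 tested genes that handle connexins, 0 passed between genotypes by limma, with 1 at an unadjusted p under 0.05 over both atria. Cav1 and Hsp90b1 had the smallest p-values over both atria, at -0.15 and -0.16 (adjusted p = 0.698 and 0.748). Over both genotypes Cav1, the coat protein of caveolae, was 0.49 higher in the left atrium (adjusted p = 1.2e-05) and Cnst, consortin, a trafficking receptor of connexins, was 0.40 higher (adjusted p = 0.0221).

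**Figure D4:**
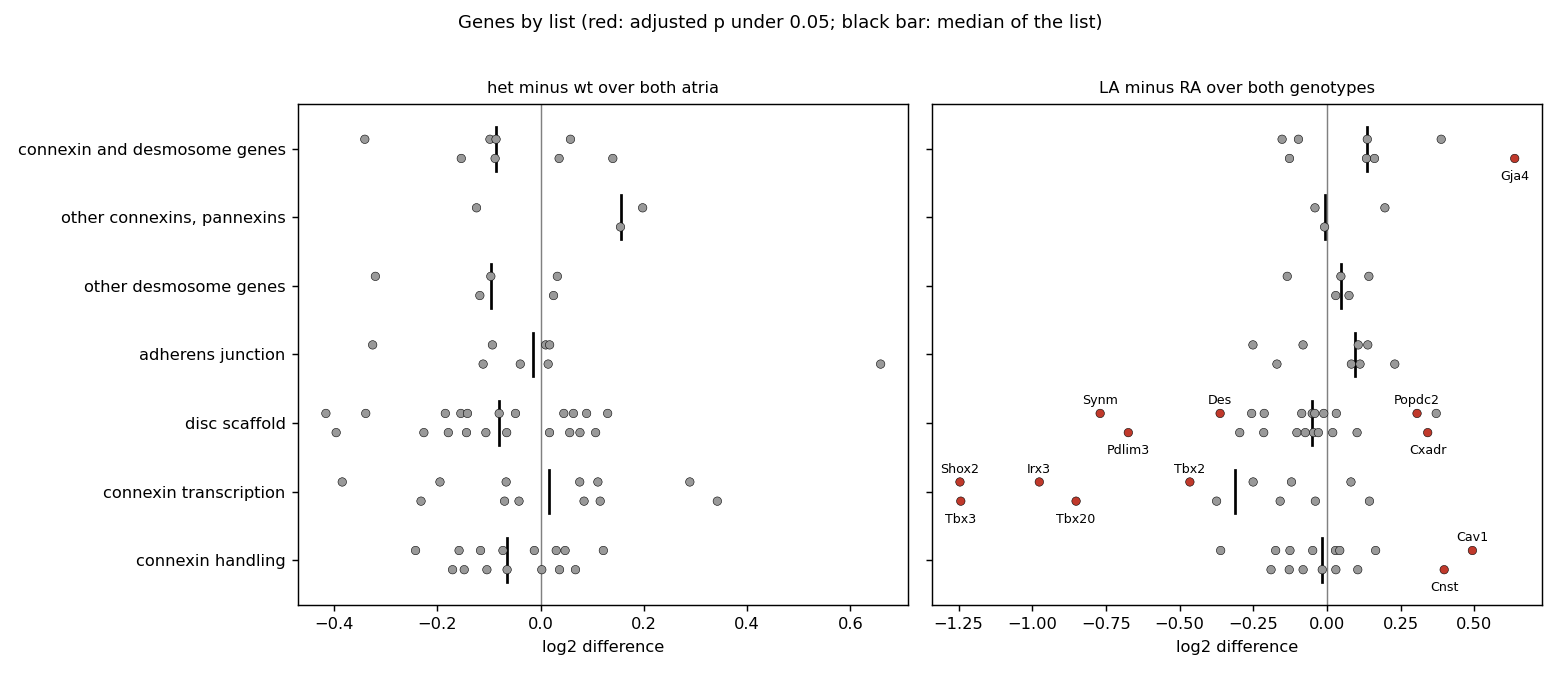
Log2 difference of the 8 tested connexin and desmosome genes and of the companion lists, without the cardiomyopathy genes, het minus wt over both atria on the left and LA minus RA over both genotypes on the right, with a bar at each list's median. No gene is red between genotypes, and 13 are red between the sides, among them Gja4 at 0.64 and 5 transcription factors between -1.25 and -0.47.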

How the data were processed

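RNA from 20 atrial appendages was measured on Illumina bead arrays. RNA came from RNeasy columns, per the labels' protocols, and was amplified to biotin-labelled cRNA. For each probe the authors deposited an intensity with its detection p-value, and their detection columns hold 1 minus p as a fraction. Between 33.7% and 33.9% of each array's deposited intensities lie below 0, and sorted values are equal within 1.8 units, so a background had been subtracted and arrays quantile-normalized. The software used is not given in the sources used here. A second deposited table holds the same intensities (largest difference 0).

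From these intensities, limma 3.58.1 in R 4.3.3 applied normexp correction with an offset of 16, quantile normalization and log2 (neqc). Of the 45281 probes, 34885 have 1 gene symbol here, 18 several and 10378 none. Tested probes had detection p below 0.05 on 5 or more arrays. Group means were fitted with lmFit and eBayes, with Benjamini-Hochberg adjustment for each of 7 contrasts. The depth of an array has no count here, so the number of arrays limits precision. The fit was tested on simulated data. Named companion genes are, per list and comparison, up to 6 called genes of smallest p, or up to 2 of smallest p where none was called, and the genes most like a member are the 3 of highest Pearson's r. The gene that the genotype concerns is not reported here. The members and lists were chosen with earlier results of these data known. Offsets, background steps, detection filters, variance models, replicate numbers as a block and each array left out were alternatives.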

Additional observations from a re-analysis of the deposited data

Results flagged for a closer look

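Each tested probe was checked for an array far from the other 4 of its group, by the gap to the nearest array over the group's range. Of 64 groups 2 passed the critical value of 0.71, which is 3.12%, and chance flags about 1 group in 20. RA het replicate 1 had a Gja4 signal of 344.5 units, above the other RA het arrays at 175.5 to 198.6 units. RA wt replicate 3 had a Jup signal of 5.1 units, below the other RA wt arrays at 14.4 to 17.9 units. That value was not above detection, and Jup was detected on only 2 of the 5 RA wt arrays.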

How the results depend on the processing

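Counts of called genes were recomputed in up to 36 other settings, of which 20 leave out 1 array, and were the same except for these. LA het against RA het gave 1 gene (Gja4) with array quality weights and 0 to 1 when 1 array was left out (1 without RA het replicate 1). Left against right over both genotypes gave 2 genes (Gja4 and Gjc1) without the arrays with brown fat marker signal, and 1 to 2 when 1 array was left out (2 without LA het replicate 4, LA wt replicate 1 or RA wt replicate 4). Gja4 over both genotypes passed in all 34 other settings, at 0.56 to 0.90. The Dsg2 difference over both atria was negative in every setting and passed in 7 of 33 for ILMN_1242566 (-1.24 to -0.96, adjusted p 0.00213 to 0.155) and 5 of 32 for ILMN_2955047 (adjusted p 0.0143 to 0.235). Those for the first are an offset of 50, robust variances, array weights, no brown fat arrays and leaving out LA het replicate 2 or RA het replicate 4 or 5. Of 70 differences followed, 31 changed sign in some setting and 0 of those were called in any.

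Sign changes larger than the standard error of the difference, without the brown fat arrays, were Gjc1 at 0.12 in the left atrium and 0.083 over both atria between genotypes, Gja1 at -0.058, Jup at -0.018, Dsg2 ILMN_1242566 at -0.39 and ILMN_2955047 at -0.36 in LA het against RA het, and Gja1 at -0.18, Gjc1 at 0.077 and ILMN_1242566 at -0.29 for the interaction. Within that error, Jup was at -0.13 and ILMN_2955047 at -0.27 for the interaction. With Myl2, Adipoq and Upk3b as covariates, Gja5 was at 0.022 between genotypes over both atria and -0.11 between sides over both genotypes, and ILMN_1242566 at 0.30 in LA wt against RA wt and 0.28 over both genotypes. Both settings were chosen after seeing the data, and the cause was not tested. Without the brown fat arrays, LA het kept only replicates 3 and 5.

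Replicate numbers did not pair the atria, since 4 of 10 same-numbered pairs correlated above 0.1 (-0.42 to 0.35) and 2 of 10 matched best by number. Across genotypes within a side, 7 of 10 same-numbered pairs were above 0.1 (-0.18 to 0.33). Differently numbered pairs were not compared there, so these correlations did not test whether arrays of the same number share an effect. With the replicate number as a fixed block no count changed, Gja4 in LA wt against RA wt had an adjusted p of 0.0272 and the Dsg2 probe ILMN_1242566 over both atria one of 0.11. As a random block within genotype the correlation was 0.0189. A fixed block within genotype gives no genotype difference, and fitting only the groups compared does not apply to both-atria tests. Dim probes (Gjd3, Jup and Dsc2) are limited by their signal over background.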

Other observations

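The genes around Dsg2 on chromosome 18 were looked at after its values were seen. Among the tested genes, in the order of GRCm38.p6 and with untested genes between them skipped, Cdh2 comes next before Dsg2, with a log2 difference between heterozygous and wild-type atria of 0.66 over both atria (limma adjusted p = 0.393), opposite in sign to the -0.34 of the brightest Dsg2 probe. Aqp4, 2 tested genes before, was at 0.60 (adjusted p = 0.591), Kctd1, 3 tested genes before, at 0.23 (adjusted p = 0.688) and Rnf125, 4 tested genes after, at 0.29 (adjusted p = 0.531). Ttr, the next tested gene after Dsg2, was at 0.24 (adjusted p = 0.829). None of these passed. Cdh2, Aqp4, Kctd1 and Rnf125 were picked by the smallest limma p-values over both atria among tested genes up to 15 places from Dsg2, and Ttr by its place. The other tested genes in that range lay on both sides of 0, between -0.17 (Zfp397) and 0.22 (Npc1). Cdh2 and Aqp4 were dim, with median signals of 28.35 and 25.65 units.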
